A study of Mus musculus with 2040 samples.

Results

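The genes described here are 10 that astrocytes are known to use to organize synapses or to engulf synaptic material: Chrdl1, Gpc4, Gpc5, Gpc6, Thbs4, Sparc, Sparcl1, Mfge8, Megf10 and Mertk. They were taken by name from the deposited table of 2040 single cells, which has 32245 gene columns, and all 10 were present. The cells came from brains of C57Bl/6J mice, each given 1 enhancer-AAV, a virus in which the named enhancer or promoter drives the yellow fluorescent protein SYFP2, and SYFP2-positive cells were sorted singly into SMARTer reactions. There were 41 mice with 27 vectors for VISp, the primary visual cortex. MB/HB, midbrain and hindbrain, had 4 mice: 2 given MGT_E160m and 2 given eHGT_381h. CBX, the cerebellar cortex, had 2 mice, both given eHGT_375m. The ages are not given in the sources used here, and no group was without virus. Each vector served a single tissue, so tissue and vector cannot be told apart, and the cells of a group are only those in which its vectors were active.

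Astrocytes secrete proteins that act on nearby synapses. Chrdl1 encodes a secreted antagonist of bone morphogenetic proteins that promotes the maturation of AMPA-type glutamate receptors at synapses. Glypicans (Gpc4, Gpc5, Gpc6) are heparan sulfate proteoglycans on a lipid anchor, of which Gpc4 and Gpc6 are known to recruit AMPA receptors to young synapses through release of neuronal pentraxin (Nptx1) and the phosphatase receptors of neurons. Thrombospondins (Thbs4) and hevin (Sparcl1) promote the formation of synapses, and SPARC (Sparc) counteracts hevin. Megf10 and Mertk are receptors through which astrocytes take up synapses and debris. Mfge8 is a secreted bridge between phosphatidylserine on the target and integrins on the engulfing cell.

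The median cell was sequenced to 434101 reads, and the range was 57873 to 1455022. Clusters built without the 10 genes and without the lists of related genes used below gave 969 astrocyte-like, 948 oligodendrocyte-like and 99 neuron-like cells, and 24 cells stayed unnamed. Every one of 12 astrocyte markers was detected in the astrocyte-like cells of all 3 tissues, with a summed level of 32646 to 42008 CPM per mouse in VISp (reads scaled to a sum of 1000000 per cell), 32366 to 38428 in MB/HB and 37868 to 39272 in CBX. Different clusters held most astrocyte-like cells of each tissue. Of 739 VISp cells, 592 were in cluster 0, 90 in cluster 7 and 54 in cluster 9. Of 149 MB/HB cells, 140 were in cluster 3, and 79 of 81 CBX cells were in cluster 8. Cluster 8 also held 6 MB/HB cells, all of 1 mouse. In CBX, 4 of the 4 tested markers of Bergmann glia, the radial astrocytes of the cerebellar cortex, passed the test as higher than in VISp. So did 3 of 7 markers of oligodendrocyte precursors, 1 of 11 oligodendrocyte markers and 1 of 2 markers of fibroblast-like vascular cells. So did 1 of 10 neuron, 1 of 3 GABA neuron and 1 of 3 ependymal markers, beside 5.26% of all genes tested. In CBX 1 of 5 mural and 1 of 6 glutamate neuron markers passed as lower, beside 6.58% of all genes. Of the 12 astrocyte markers, 3 passed as higher and 7 as lower in CBX than in VISp, and 3 and 3 in MB/HB. Summed markers of Bergmann glia were 12874 to 13545 CPM in CBX, 471 to 1021 in VISp and 180 to 2162 in MB/HB (median 262). The part of the 6 MB/HB cells of cluster 8 in the highest MB/HB value was not tested. In MB/HB, 7 of 7 tested endothelial markers, 2 of 5 mural markers and 2 of 2 markers of fibroblast-like vascular cells were higher than in VISp. So were 3 of 11 oligodendrocyte markers and 2 of 7 markers of oligodendrocyte precursors. So were 1 of 10 neuron, 1 of 3 GABA neuron and 1 of 3 ependymal markers, beside 6.01% of all genes tested. Of 6 glutamate neuron markers, 2 were lower, beside 5.79% of all genes. Summed markers of GABA neurons were 327 to 801 CPM in MB/HB, 59.6 to 83.1 in CBX and 0.1 to 42.4 in VISp astrocytes. The summed endothelial level was 7.2 and 84.1 CPM in the MB/HB mice given MGT_E160m, called A and B, and 832 and 1212 CPM in those given eHGT_381h, called C and D, against 0.8 to 23.1 in VISp. It was 13.5 CPM in 1 CBX mouse, called A, and 20.8 in the other, B. MB/HB mouse D also had 2265 CPM of summed mural markers, against 40.7 to 85.5 in the other MB/HB mice. MB/HB mouse B had 6262 CPM of oligodendrocyte markers, against 839 to 1514 in the others. The summed oligodendrocyte level was 2224 CPM in CBX mouse A and 1935 in CBX mouse B, above the VISp range of 171 to 1311. Summed markers of fibroblast-like vascular cells had a median of 53.6 CPM in CBX, 50.4 in MB/HB and 5.4 in VISp. The part of these other cell types in the results was not tested beyond the values given below. A mouse entered the comparison of a class if it had 10 or more cells of it, which left 19 mice for VISp astrocytes (12 vectors), 4 for MB/HB, 2 for CBX, 22 for VISp oligodendrocytes (15 vectors) and 3 for VISp neurons (2 vectors). These neurons are cells that vectors meant for glia had labelled, and their summed markers of GABA neurons were 3004 to 3835 CPM. A level is the mean CPM over the cells of 1 mouse, and differences are on the log2(mean CPM + 1) scale. CPM are not divided by gene length, so levels are compared between groups and not between genes.

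**Figure D1:**
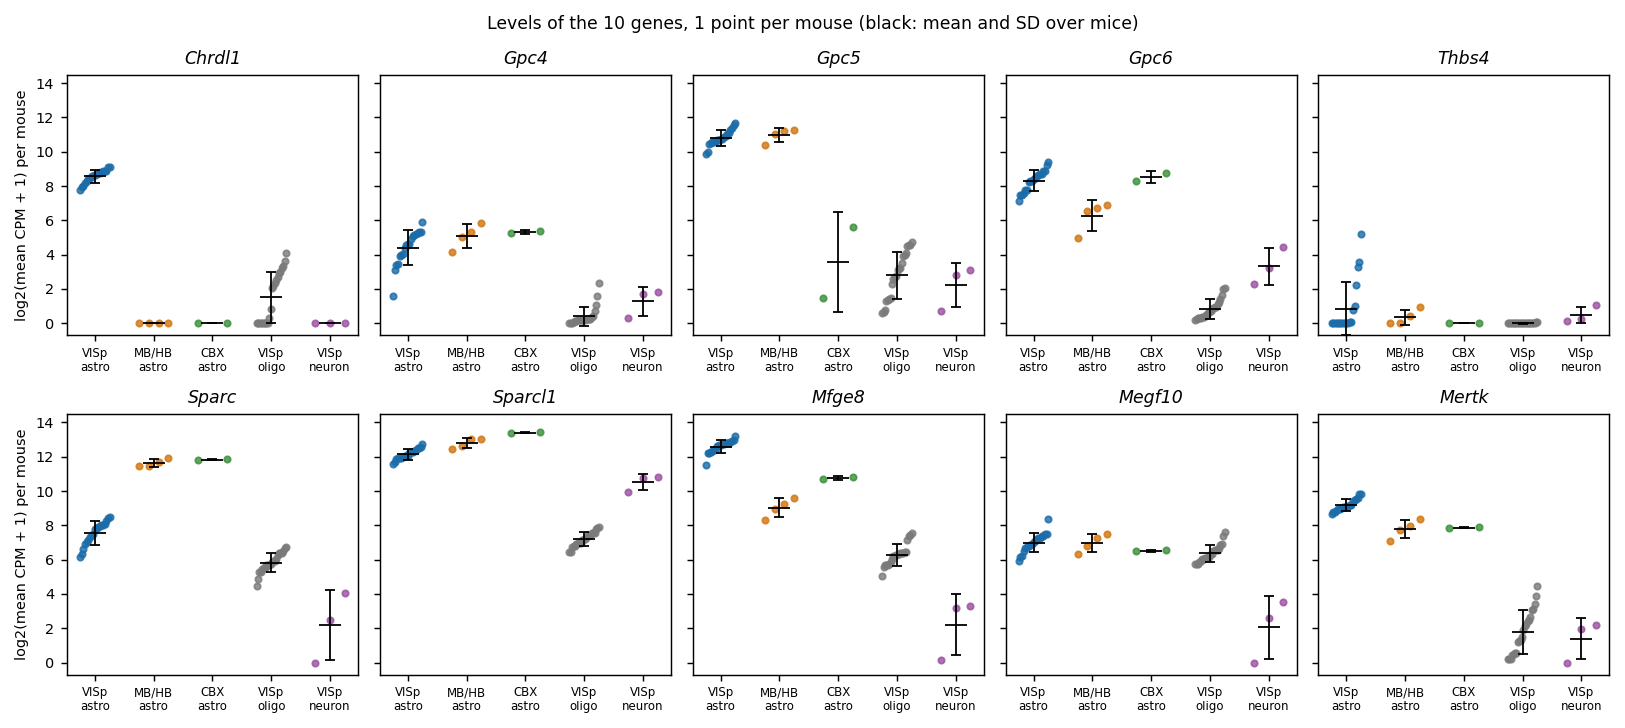
Level of each of the 10 genes, as log2(mean CPM + 1) on the vertical axis, in astrocyte-like cells of VISp (19 mice), MB/HB (4) and CBX (2) and in oligodendrocyte-like (22) and neuron-like (3) cells of VISp; a point is a mouse, and black marks show the mean and SD. Chrdl1 is at 0 in every MB/HB and CBX mouse, and Sparc is at 2783 CPM or higher in all 6 of these mice and below 355 CPM in all 19 VISp mice.

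Within VISp, astrocytes had more of all 10 genes than oligodendrocytes (limma, adjusted p below 0.05), in a comparison in which 56.8% of the genes tested passed, 36.6% as higher and 20.2% as lower. Against neurons, 9 of the 10 were higher, where 43.4% of all genes passed, 18% as higher and 25.4% as lower. Thbs4 did not pass against neurons. It entered both tests through its level in astrocytes, the group in which it is higher, so its pass against oligodendrocytes adds no support to the count of 10. The calls of Thbs4 and Megf10 against oligodendrocytes ended under alternatives, given with these genes below. The median difference over the 10 genes was 5.63 against oligodendrocytes and 5.18 against neurons, and over all genes tested it was 0.22 and -0.017.

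Between tissues the 10 genes did not move together. In CBX against VISp astrocytes 2 of 10 were higher (Sparc, Sparcl1) and 4 lower (Chrdl1, Gpc5, Mfge8, Mertk), beside 11.8% of all genes tested (5.26% higher, 6.58% lower). In MB/HB against VISp 2 were higher (Sparc, Sparcl1) and 4 lower (Chrdl1, Mfge8, Gpc6, Mertk), beside 11.8% of all genes (6.01% higher, 5.79% lower). Both comparisons use the same VISp mice, and Chrdl1, with no read in the other tissues, entered them only through its level in VISp. In CBX against MB/HB 2 were higher (Gpc6, Mfge8) and 1 lower (Gpc5), beside 9.35% of all genes (3.98% higher, 5.37% lower). The median difference over the 10 genes was -0.67, -0.27 and 0.14 in these 3 comparisons, and over all genes -0.11, -0.065 and -0.02. Cells of different tissues shared 5 sorting plates, which form 2 sets. With only cells from these plates and the set as a covariate (13 VISp, 4 MB/HB and 2 CBX mice, at least 5 cells each; an alternative chosen after seeing the data), the same members passed in each of the 3 comparisons. The called differences then ran from -8.65 to 4.26 for CBX against VISp and from -8.64 to 4.01 for MB/HB against VISp.

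**Figure D2:**
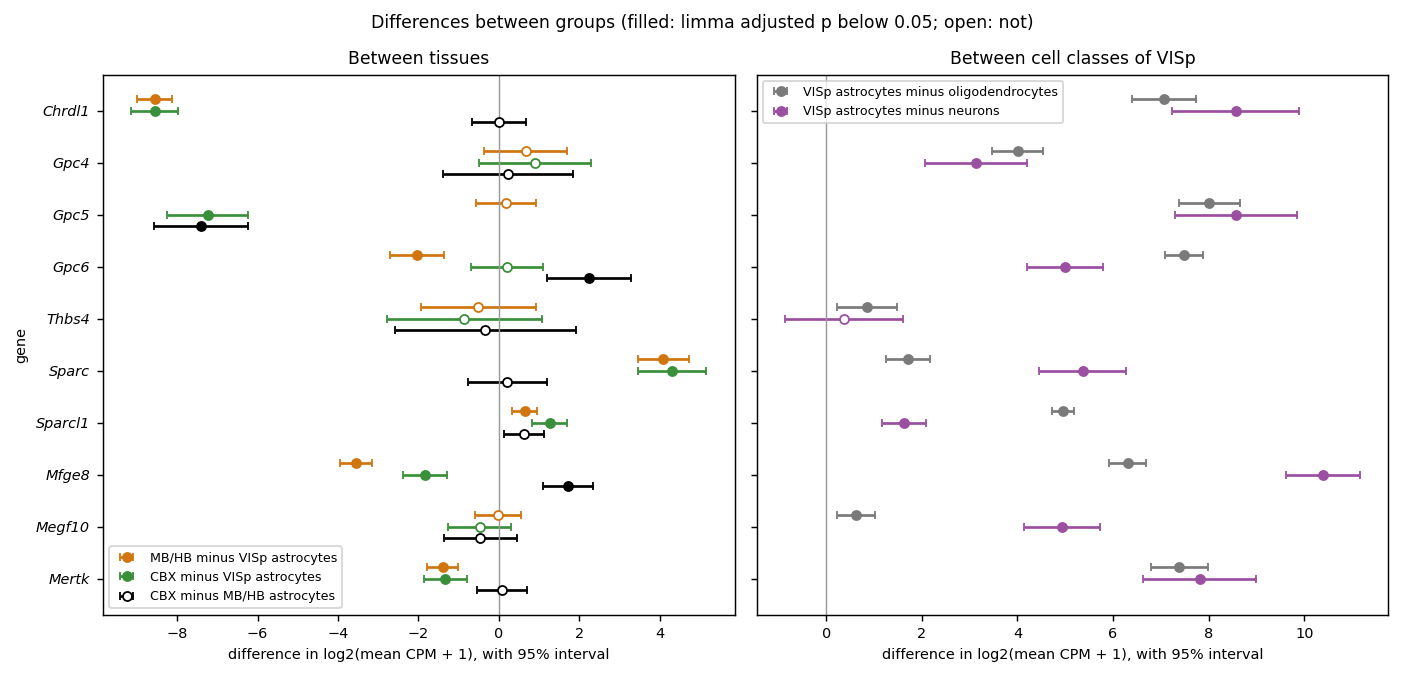
Difference in log2(mean CPM + 1) on the horizontal axis, with its 95% interval, for each gene between astrocytes of 2 tissues (left) and between cell classes of VISp (right); filled points have a limma adjusted p below 0.05. In the left panel, Chrdl1 in both comparisons with VISp and Gpc5 in both comparisons of CBX lie far to the left, Sparc lies near 4 to the right in both comparisons with VISp, and Megf10 and Gpc4 have intervals that include 0 in every comparison of tissues.

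The 250 bases before the start of Gpc5, Mfge8 and Sparc, 3 genes that passed in a comparison of tissues, are printed here from RefSeq's table (GRCm38.p6), which matched 6 of the 9 genes looked up. Chrdl1, Gpc6 and Sparcl1 were not matched. Capitals mark CG dinucleotides. Gpc5 lies on the plus strand (chr14:115091965-115092214) and fell in CBX alone, with 12 CG dinucleotides and 51.2% G and C. Mfge8 lies on the minus strand (chr7:79149061-79149310) and was highest in VISp, with 12 CG dinucleotides and 65.2% G and C. Sparc lies on the minus strand (chr11:55420081-55420330) and was highest outside VISp, with 4 CG dinucleotides and 54% G and C; RefSeq's start lies inside the gene's annotated span, so the window does too. The median over 32851 promoters was 6 CG dinucleotides and 52.4% G and C.
Gpc5: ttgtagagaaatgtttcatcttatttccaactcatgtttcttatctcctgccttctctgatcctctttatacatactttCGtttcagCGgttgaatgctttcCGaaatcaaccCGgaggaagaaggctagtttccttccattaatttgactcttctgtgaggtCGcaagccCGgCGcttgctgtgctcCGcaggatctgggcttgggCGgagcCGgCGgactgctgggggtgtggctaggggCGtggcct
Mfge8: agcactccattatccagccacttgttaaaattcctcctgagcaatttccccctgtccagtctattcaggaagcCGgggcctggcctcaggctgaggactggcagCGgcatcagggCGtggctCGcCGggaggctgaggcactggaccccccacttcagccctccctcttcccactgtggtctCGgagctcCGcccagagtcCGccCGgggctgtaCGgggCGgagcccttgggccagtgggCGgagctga
Sparc: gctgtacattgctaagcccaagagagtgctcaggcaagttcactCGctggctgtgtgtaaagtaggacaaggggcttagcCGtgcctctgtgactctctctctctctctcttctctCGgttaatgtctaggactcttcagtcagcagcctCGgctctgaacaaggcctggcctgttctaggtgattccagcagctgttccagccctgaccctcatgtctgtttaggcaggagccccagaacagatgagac
On both strands of these windows, and of those of Gpc4, Mertk and Thbs4, neither the homeodomain core TAATTA nor the SOX core AACAAT nor the NFI palindrome (TTGGC, any 5 bases, GCCAA) was found. They are present in 4.84%, 9.42% and 0.0365% of all promoters of this length. That says only that these letters are not in these windows.

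Chrdl1 was read in cortical astrocytes and not in the others. Its gene lies on the minus strand of chromosome X (GRCm38, 143285674 to 143394262). The level over the 19 VISp mice was 221 CPM at the lowest, 400.0 at the median and 561 at the highest, and 549 of 739 cells had a read. All 4 MB/HB mice and both CBX mice had 0 reads, so the groups do not overlap. With 3 reads over the group as the floor, Chrdl1 in the sampled cells was 8330-fold lower in MB/HB and 4323-fold lower in CBX than in VISp astrocytes (limma adjusted p = 8.61e-25 and 6.68e-21). This floor takes reads as independent. The VISp reads, 128871 in 549 cells, came many to a cell, so the folds do not bound the level in cells not sampled. Chrdl1 entered these tests only through its level in VISp, the group in which it is higher. The p-values therefore add no support beyond the values themselves. The 0 of 149 cells in MB/HB allows a share of up to 2.01% of cells with a read, and the 0 of 81 in CBX up to 3.70%, which covers counting error only. In VISp, oligodendrocytes had 0 to 15.97 CPM with 21 of 928 cells positive, and neurons had 0 reads in 61 cells. Astrocytes exceeded oligodendrocytes by 7.06 ± 0.33 (SE) on the log2 scale (limma adjusted p = 2.36e-24).

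The 3 glypicans each had a different tissue pattern. Gpc5 (chromosome 14, 115092215 to 116525179, plus strand) ranged from 937 to 3242 CPM in the 19 VISp mice with a median of 1697. Its levels in the 4 MB/HB mice were 1363, 2054, 2398 and 2472 CPM, inside the VISp range, and the difference of 0.18 did not pass (95% interval -0.57 to 0.92). CBX mouse A was at 1.83 CPM and mouse B at 48.6, below every other mouse. In mouse B a single cell held 96.1% of the summed CPM, and the median cell of that mouse was at 1.815 CPM. Gpc5 was lower in CBX than in VISp by 7.24 ± 0.49 (SE; 150.9-fold, limma adjusted p = 1.005e-12) and lower than in MB/HB by 7.41 ± 0.58 (adjusted p = 6.89e-11). The VISp oligodendrocytes, at 0.49 to 25.5 CPM, covered the lower of the CBX values.

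Gpc6, the neighbouring glypican on chromosome 14 (116925315 to 117976544, plus strand), was low in MB/HB instead, with 29.9, 91.3, 105 and 119 CPM. The VISp mice ranged from 136 to 669 with a median of 340, and the CBX mice were at 308 and 432. MB/HB lies below every VISp and CBX mouse, and CBX lies inside VISp. Gpc6 was 4.09-fold lower in MB/HB than in VISp (log2 difference -2.03 ± 0.33 SE, limma adjusted p = 2.56e-05) and 4.72-fold higher in CBX than in MB/HB (adjusted p = 0.00295). Without CBX mouse B the last difference was 1.996 with an adjusted p of 0.0915. CBX and VISp differed by 0.205 (95% interval -0.69 to 1.10), which did not pass. In the MB/HB mouse at 29.9 CPM, given eHGT_381h, 15.6% of cells had a read, against 57.5% to 61.1% in the other 3. This is mouse D, with the highest summed endothelial and mural markers, and without it the difference from VISp was -1.59 (adjusted p = 0.00104).

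Gpc4 was low and scattered. Its level was 1.98 to 59.1 CPM in VISp (median 23.4), 16.5 to 57.1 in MB/HB and 36.6 and 41.2 in CBX, and the 3 ranges overlap. None of the 3 tissue differences passed, and the 95% interval of CBX against VISp ran from -0.49 to 2.30. Within VISp, oligodendrocytes were at 0 to 4.04 CPM and neurons at 0.22 to 2.55. Gpc4 was higher in astrocytes than in oligodendrocytes by 4.01 ± 0.27 (SE) and than in neurons by 3.135 ± 0.53 (limma adjusted p = 1.69e-18 and 2.05e-06). With the mean of log2 values over cells in place of the mean level, these were 0.95 and 0.70. Gpc5 was higher in astrocytes than in oligodendrocytes by 8.01 ± 0.32 and Gpc6 by 7.48 ± 0.20 (adjusted p = 2.48e-27 and 1.93e-34).

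Sparc (chromosome 11, 55394500 to 55423183, minus strand) had the largest rise outside the cortex among the 10 genes. The 19 VISp mice ranged from 68.8 to 354 CPM with a median of 221. The 4 MB/HB mice were at 2783, 2834, 3306 and 3822 CPM and the CBX mice at 3576 and 3737. No VISp mouse reached the level of any other mouse. Sparc was 17.03-fold higher in MB/HB (log2 difference 4.09 ± 0.31 SE, limma adjusted p = 9.9e-12) and 19.7-fold higher in CBX (4.30 ± 0.42, adjusted p = 1.86e-09). CBX and MB/HB differed by 0.21 (95% interval -0.78 to 1.20). All 149 MB/HB cells and all 81 CBX cells had a Sparc read, against 377 of 739 VISp cells and 297 of 928 VISp oligodendrocytes.

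Sparc is also a gene of blood vessel cells, and endothelial markers were higher in MB/HB. MB/HB mouse A, with 7.2 CPM of them, had 2834 CPM of Sparc, and mouse D, with 1212 CPM, had 3822. In MB/HB cells with no endothelial, mural or fibroblast-like vascular marker at 10 CPM, Sparc averaged 3220 CPM over 70 cells, and it averaged 3107 over the 79 cells with such a marker. The corresponding averages were 206 (400 cells) and 198 (339 cells) in VISp, and 3659 (17 cells) and 3649 (64 cells) in CBX. Without the cells that had such a marker, the difference was 4.03 for MB/HB (limma adjusted p = 1.67e-09). It was 4.29 for CBX, where 1 mouse was left, so the spread between CBX mice could not be measured.

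Sparcl1 (chromosome 5, 104079111 to 104113733, minus strand) was also higher in both other tissues, by less than Sparc. It had a read in all 969 astrocyte-like cells. VISp mice ranged from 3047 to 6935 CPM with a median of 4283. The MB/HB mice were at 5684, 6349, 8237 and 8436 CPM and the CBX mice at 10608 and 11161. MB/HB overlaps VISp and CBX lies above both. Sparcl1 was 1.56-fold higher in MB/HB than in VISp (limma adjusted p = 0.00415) and 2.40-fold higher in CBX (adjusted p = 3.78e-05), and CBX against MB/HB, at 0.62 (95% interval 0.12 to 1.12), did not pass (adjusted p = 0.117). Neurons of VISp carried it too, at 1002, 1766 and 1786 CPM in the 3 mice. Oligodendrocytes had 87.2 to 234. Astrocytes exceeded neurons 3.09-fold and oligodendrocytes 31.1-fold (adjusted p = 3.10e-08 and 2.71e-37). Sparc was 3.26-fold higher in VISp astrocytes than in oligodendrocytes, whose range of 21.4 to 105 CPM overlaps theirs, and 41.3-fold higher than in neurons.

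Thbs4 was close to absent in all groups. Only 12 of 739 VISp astrocytes, 2 of 149 MB/HB astrocytes and 0 of 81 CBX astrocytes had a read. The highest mouse, a VISp mouse given GFAP_promoter, had 36.1 CPM from 2 of 43 cells, 1 of which held 89.8% of it. The other GFAP_promoter mouse had 11.04 CPM from 3 of 45 cells. The median VISp mouse was at 0, and no tissue difference passed. The pass against oligodendrocytes (0.85 ± 0.31 SE, limma adjusted p = 0.0164), where 2 of 928 cells had a read, had an adjusted p of 0.0573 on AB plates alone. The difference was 1.776 with a pseudocount of 0.1 CPM 0.50 without cells with a vascular marker and 0.077 with log2 values averaged over cells.

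Of the engulfment genes, Mfge8 (chromosome 7, 79133768 to 79149060, minus strand) changed most between tissues. VISp mice ranged from 2986 to 9631 CPM with a median of 6547. The MB/HB mice were at 319, 488, 614.6 and 784 CPM and the CBX mice at 1633 and 1827. The 3 groups do not overlap. Mfge8 was 11.8-fold lower in MB/HB than in VISp (log2 difference -3.56 ± 0.20 SE, limma adjusted p = 4.84e-15), 3.57-fold lower in CBX (-1.84 ± 0.27, adjusted p = 3.82e-06) and 3.30-fold higher in CBX than in MB/HB (adjusted p = 1.575e-04). The share of cells with a read followed the same order: 738 of 739 cells in VISp, 78 of 81 in CBX and 95 of 149 in MB/HB, where the 4 mice had 40.6%, 61.1%, 70.7% and 77.5%. The lowest level was that of mouse B and the lowest share that of mouse D, and the difference from VISp was -3.32 without mouse B and -3.52 without mouse D. In VISp, 289 of 928 oligodendrocytes had a read, at 31.7 to 190 CPM per mouse. Mfge8 in VISp astrocytes exceeded oligodendrocytes 79.3-fold and neurons, at 0.11 to 8.88 CPM, 1339-fold (adjusted p = 4.72e-32 and 1.12e-27).

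Mertk (chromosome 2, 128698956 to 128802894, plus strand) was lower by a like amount in both other tissues. VISp mice ranged from 409 to 925 CPM with a median of 543. The MB/HB mice were at 134, 214, 249 and 327 CPM and the CBX mice at 227 and 233. Both groups lie below every VISp mouse and overlap each other. The lowest is mouse D, without which the difference of MB/HB from VISp was -1.16 (adjusted p = 1.09e-04). Mertk was 2.64-fold lower in MB/HB (limma adjusted p = 2.585e-06) and 2.52-fold lower in CBX (adjusted p = 3.94e-04). With log2 values averaged over cells, CBX against VISp had a difference of -1.05 with an adjusted p of 0.187, and MB/HB against VISp one of -2.77. Mertk was 167-fold higher in VISp astrocytes than in oligodendrocytes and 224-fold higher than in neurons.

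Megf10 was read in VISp oligodendrocytes at levels that overlapped those of astrocytes. Its levels were 60.5 to 330.2 CPM in VISp astrocytes (median 127), 78.9, 111, 150 and 181 in MB/HB, 88.1 and 91.9 in CBX and 51.7 to 193 in VISp oligodendrocytes, and these ranges overlap. No tissue difference passed, and the 95% intervals ran from -0.59 to 0.56 for MB/HB and from -1.26 to 0.30 for CBX against VISp. Astrocytes exceeded oligodendrocytes 1.55-fold (limma adjusted p = 0.00614). That call ended with a pseudocount of 0.1 CPM (adjusted p = 0.0563) and without cells with a vascular marker (difference 0.43, adjusted p = 0.0697). A read was found in 442 of 739 VISp astrocytes and 529 of 928 oligodendrocytes, but in 5 of 61 neurons, against which astrocytes were 30.6-fold higher (a log2 difference of 4.935, adjusted p = 3.90e-15; 3.20 without cells with a vascular marker).

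**Figure D3:**
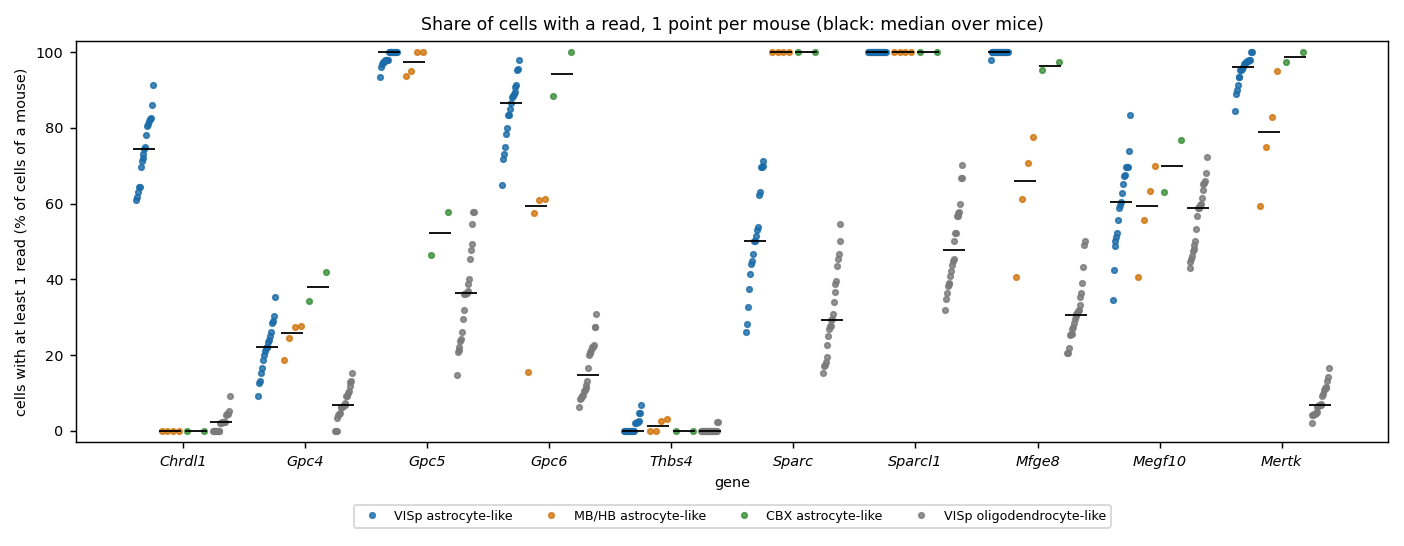
Share of cells with at least 1 read of each gene, in percent of the cells of 1 mouse, for astrocyte-like cells of the 3 tissues and oligodendrocyte-like cells of VISp; a point is a mouse and a black mark the median over mice. Sparc is found in 100% of MB/HB and CBX cells and in a median of 50.0% of VISp cells, and Mfge8 and Gpc6 are spread widest among the MB/HB mice.

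A mean level can come from all cells or from a few, and the genes differed in this. In VISp astrocytes the median share of cells with a read was 100% for Gpc5, Sparcl1 and Mfge8, 96.2% for Mertk, 86.7% for Gpc6, 74.4% for Chrdl1, 60.5% for Megf10, 50.0% for Sparc, 22.2% for Gpc4 and 0% for Thbs4. The median depth was 431572 reads in VISp, 411220 in MB/HB and 375425 in CBX astrocytes. With each cell thinned to 50000 reads, the shares in VISp were 97.8% for Gpc5, 93% for Mertk, 78.6% for Gpc6, 71.9% for Chrdl1, 55.3% for Megf10 and 15.6% for Gpc4. A share can also hold a few stray reads: Gpc5 had a read in 42 of 81 CBX cells at a median of 1.51 CPM, and thinned the median share was 7.28%, beside 7.255% in VISp oligodendrocytes.

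Across cells of 1 mouse the correlations between the genes were low. Several genes had no read in many cells and no reference for noise was made, so independence was not tested. Within the 18 VISp mice with at least 20 astrocytes, the highest median Spearman correlation was 0.30 for Gpc5 and Gpc6, above 0 in 18 of 18 mice. It was 0.27 for Gpc5 and Mertk, 0.26 for Sparcl1 and Mfge8 and 0.245 for Gpc6 and Mertk. Sparcl1 ran slightly against Gpc6 and Mertk, at -0.14 each, and Gpc5 against Mfge8 and Sparcl1, at -0.14 (above 0 in 3 of 18 mice) and -0.13 (above 0 in 1 of 18). Cells of a mouse share plate and depth, and the median correlation of each gene with depth lay between -0.10 and 0.07. Cluster 9, 57 cells from 19 mice of which 54 were from VISp, had a different mix. Gpc5 averaged 468 CPM there, Gpc6 28.3, Megf10 76.1 and Mertk 173, against 2072, 399, 144 and 649.97 in cluster 0. Sparc averaged 779 and Sparcl1 8331, against 187 and 4278. These are descriptions of clusters, with no test.

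No difference between vectors passed the test, which had 2 mice per vector and could miss sizeable differences. It was made within VISp, so it does not bear on the vectors of the other tissues. Over the 10 genes, the range of vector means ran from 0.53 for Sparcl1 to 4.40 for Thbs4 on the log2 scale. Among the 7 vectors with at least 2 mice of VISp astrocytes (14 mice), 0 of 10 members and 0% of all genes passed the limma F-test, and 130 of 2529 genes (5.14%) had an unadjusted p below 0.05. The smallest unadjusted p of a member was 0.0082 for Thbs4 (adjusted p = 0.792). Mice of the same vector could differ as widely as vectors: Sparc was 79.3 and 304.5 CPM in the GFAP_promoter mice and 68.8 and 96.3 in the 3xCore2(390m) mice.

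The other genes of these pathways were read from lists of ligands, partners and relatives. Of 15 neuronal and synaptic partners, 2 were higher and 2 lower in MB/HB than in VISp astrocytes, and 2 higher and 4 lower in CBX, beside 11.8% of all genes in each comparison. The median differences were -0.17 and -0.20. Gria1, the AMPA receptor subunit linked to Gpc4 and Gpc6, was 5.17 to 155 CPM in VISp, 169 to 461 in MB/HB and 1106 and 1159 in CBX, and rose by 3.84 and 5.97 (limma adjusted p = 4.14e-05 and 3.48e-06). Gria2, the subunit linked to Chrdl1, had medians of 518, 264 and 44.8 CPM in the same order and fell by 1.05 and 3.49. Ptprd rose by 1.74 in MB/HB, and Nlgn3 fell there by 0.91, without a call when mouse D was left out (-0.66, adjusted p = 0.221) or mouse B (-0.88, adjusted p = 0.0878), nor on plates of more than 1 tissue (-0.51, adjusted p = 0.452) or without cells with a vascular marker (-1.51, adjusted p = 0.188). In CBX, Nptx1 rose by 2.96, without a call when CBX mouse A was left out (1.53, adjusted p = 0.304). With log2 values averaged over cells the difference was 0.71 for Nptx1 in CBX, and for Gria2 -1.99 in MB/HB and -5.24 in CBX.

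Some relatives of the members also passed between tissues, beside 11.8% of all genes tested in each comparison with VISp. Of these, 6.01% were higher and 5.79% lower in MB/HB, and 5.26% and 6.58% in CBX. Whether a list exceeds these shares was not tested. Thbs2 entered the tests only through its level in MB/HB, the group in which it is higher. Of 3 tested thrombospondin genes, Thbs2 was 0 to 1.42 CPM in VISp, 0 in both CBX mice and 18.6 to 44.3 in MB/HB, a rise of 4.905 (limma adjusted p = 3.05e-14), and Thbs3 rose in CBX by 2.02, a call that ended without either CBX mouse (adjusted p = 0.412 and 0.152), on plates of more than 1 tissue (0.21) and without cells with a vascular marker (0.516). Of 6 SPARC relatives, Fstl1 rose by 1.61 in MB/HB (1.5, adjusted p = 0.0532, without cells with a vascular marker, and 1.12, adjusted p = 0.146, on plates of more than 1 tissue), and in CBX Spock3 rose by 6.79 while Fstl1 and Smoc1 fell by 2.69 and 2.60. The fall of Fstl1 did not pass without CBX mouse B (adjusted p = 0.187) or without cells with a vascular marker (0.127), nor that of Smoc1 without CBX mouse A (adjusted p = 0.82), on plates of more than 1 tissue (0.375) or with log2 values averaged over cells (-0.84, 0.0543). Of 7 tested genes of BMP signalling, the pathway of Chrdl1, none passed in MB/HB, and Bmp7 and the receptor Bmpr1b fell by 4.12 and 1.15 in CBX, the latter without a call when either CBX mouse was left out (adjusted p = 0.106 and 0.303). Neither of 2 tested glypican relatives passed in a tissue comparison. Of 8 other astrocyte synapse signals, Spon1 and Bdnf rose in MB/HB (3.08 and 3.07) and Ephb1 fell (-4.10). In CBX, Tnc and Spon1 rose (5.90 and 2.23) and Tgfb2, Ephb1 and Ncan fell (-4.51, -4.997 and -5.22). Spon1 in CBX had an adjusted p of 0.0856 without CBX mouse A and of 0.107 without cells with a vascular marker. With log2 values averaged over cells, Thbs2, Bdnf, Ephb1 and Spon1 in MB/HB differed by 1.15, 0.41, -2.48 and 4.68, and Bmp7, Bmpr1b, Fstl1, Ephb1 and Spon1 in CBX by -1.485, -1.35, -1.40, -2.90 and 4.80; among these Bmpr1b lost its call (adjusted p = 0.121).

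Of 21 engulfment genes tested, 3 were higher and 0 lower in MB/HB, and 1 was higher and 4 lower in CBX, with medians of 0.11 and -0.16, beside 6.01% and 5.79% of all genes in MB/HB and 5.26% and 6.58% in CBX. Gas6, a ligand of Mertk, was 36.3 to 152 CPM in VISp, 54.8 to 76.4 in MB/HB and 1.95 and 14.7 in CBX, a fall of 3.49 (limma adjusted p = 1.12e-07). Pros1, the other ligand, fell by 1.39 in CBX (adjusted p = 0.0408) and by 0.67 without CBX mouse B (adjusted p = 0.884), and it did not pass without any of 4 VISp mice either (adjusted p = 0.0501 to 0.0514), nor on plates of more than 1 tissue (0.589) or without cells with a vascular marker (0.79). Elmo2 rose there by 1.47, without a call when either CBX mouse was left out (adjusted p = 0.298 and 0.088), on plates of more than 1 tissue (0.0728) or without cells with a vascular marker (0.436). In MB/HB, Abca7 and Adgrb1 rose by 1.92 and 1.01, and both had an adjusted p above 0.05 without mouse B, C or D (0.0778 to 0.144), and Abca7 also without any of 4 VISp mice (0.0504 to 0.0522). Without cells with a vascular marker the 2 differences were 0.54 and 0.77 (adjusted p = 0.771 and 0.43), on plates of more than 1 tissue 0.25 and 0.03 (0.877 and 0.986), and with log2 values averaged over cells 0.29 and 0.80 (0.0565 and 0.114). With that averaging Gas6 and Elmo2 in CBX differed from VISp by -2.02 and 3.595. Between CBX and MB/HB, 1 gene was higher (Elmo2) and 1 lower (Gas6, -3.28), beside 3.98% and 5.37% of all genes. On plates of more than 1 tissue neither passed (Gas6 -1.575, adjusted p = 0.358; Elmo2 1.51, adjusted p = 0.152).

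Within VISp, astrocytes against oligodendrocytes had 10 of 21 engulfment genes higher and 7 lower, with a median of 0.37, beside 36.6% and 20.2% of all genes. Gulp1, an adaptor of engulfment receptors, and Lrp1, a scavenger receptor, led the higher genes (5.55 and 5.41), and Edil3, a homologue of Mfge8, and Elmo1 the lower ones (-8.85 and -6.32). Edil3 was at 894 to 1699 CPM in oligodendrocytes and 0.06 to 18.4 in astrocytes, the reverse of Mfge8. Against neurons 9 were higher, led by Itgb5 (5.80), an integrin that binds Mfge8, and Axl (5.76), and 4 lower, led by Elmo1 (-5.69) and Edil3 (-5.52), beside 18% and 25.4% of all genes. Of the 15 synaptic partners 9 were higher and 2 lower than in oligodendrocytes, Gria2 among the higher (5.25), and 4 higher and 8 lower than in neurons, beside the same shares of all genes. Among SPARC relatives, Spock1 and Spock3 were lower in astrocytes than in both other classes (-6.23 and -7.45, -5.95 and -8.08), and Fstl1 was higher (5.04 and 2.08). With log2 values averaged over cells these were 2.13 and 0.79 for Fstl1, 2.74 for Gulp1 against oligodendrocytes, and 3.72 and 3.30 for Itgb5 and Axl against neurons.

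Genes with the most similar profile were sought among 4197 genes with a read, as the smallest root mean square difference in log2(mean CPM + 1) over the 5 groups after centring each gene. Chrdl1 was nearest to Lhx2 (1.18), Emx2 (1.27) and Prelp (1.84). Mertk was nearest to Nat8f5 (0.26), Gli3 (0.30) and Bmpr1b (0.42), Gpc6 to Gas1 (0.38), Nkain4 (0.85) and Tom1l1 (0.88), and Gpc4 to Gm9925 (0.33), Tom1l1 (0.41) and Aqp9 (0.44). Sparcl1 was nearest to Eps8 (0.43), Dusp6 (0.44) and Mcc (0.45), and Megf10 to 2310022B05Rik (0.37), Zfyve21 (0.43) and Tesk2 (0.46). Mfge8 was nearest to Plpp3 (0.91), Slc1a3 (1.06) and Myorg (1.23). Gpc5 was nearest to Gdpd2 (1.38), Adora2b (1.40) and Upp1 (1.41), and Sparc to Mdk (1.42), Lama2 (1.52) and the mural marker Myl9 (1.55). The nearest genes to Thbs4, Gm10101 (0.04), Sap130 (0.09) and Rbm6 (0.11), are near it because all 4 profiles are nearly flat.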

How the data were processed

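The deposited table holds CPM per cell and gene, and the deposited columns recorded as signal, those whose values sum past 1000000 over the cells, hold the same CPM and were used like the others. Every line summed to 1000000, and all 9484843 positive values were whole multiples of 1 read within 0.001, so the depth of each cell was read from these steps. STAR and mm10 are named in the submitters' processing notes; the counting, annotation and normalization are not given in the sources used here. The 10 members, the lists of related genes and the markers were chosen with earlier results of these data known. A panel of 5000 columns was used (all listed genes, the rest drawn at random, with 1 drawn column later replaced by a near neighbour in the table) and 27245 columns were not, so adjusted p-values cover the panel.

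The 2000 most variable panel genes, without the members and related lists, were reduced to 30 principal components and clustered by the Leiden method of leidenalg 0.10.2 on a graph of 15 neighbours at resolution 1 (scikit-learn 1.9.0 and igraph 0.11.9). Clusters were named from marker lists, so names may differ from the study's own, and no doublet caller was run. The class called in each cell from its markers was the same in 2004 of 2016 named cells, and 44 of 969 astrocyte-like cells carried RNA of another class. CPM was averaged per mouse and class (at least 10 cells), a pseudocount of 1 CPM was added, genes with at least 1 CPM in 2 profiles were kept, and limma 3.58.1 (R 4.3.3) was fitted with its trend on mean level; tests were two-sided, and p-values were adjusted by Benjamini and Hochberg's method with a threshold of 0.05. The 3 tissues shared 1 model (25 mice) and the 3 VISp classes another (44 profiles). Mice are the replicates, and p-values measure a spread between mice that the groups of a model share. For CBX, with 2 mice, and the neurons, with 3, this spread comes mostly from the mice of other groups. Named in the text are all members, at most 2 higher and 2 lower genes of a related list with the largest change past the threshold, and the 3 genes nearest to each member; the genes of lists with more falls than that, and marker genes named as such, were named after their values were seen. Some genes that this rule would name are not reported here. The fit was run on simulated data with normal noise of the same spread in all groups. Such data lack the groups wholly at 0 and the unequal spreads seen here, so that check does not cover genes of this kind. Alternatives changed the pseudocount, the filter, the averaging, the class call, the cells kept, the plates and the mice.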

Additional observations from a re-analysis of the deposited data

How the results depend on the processing

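The number of members past the threshold stayed at 6 (CBX against VISp), 6 (MB/HB against VISp), 9 (against neurons) and 0 (vectors) in every alternative, at 9 or 10 against oligodendrocytes, and at 2 to 4 for CBX against MB/HB. Which members passed could change. With log2 values averaged over cells, Gpc4 in CBX had a call (1.08, adjusted p = 0.01 by limma) and so had Mertk in CBX above MB/HB (1.715, adjusted p = 0.0436), while Mertk in CBX against VISp lost its own. The size of these called differences moved by over 1.5 times: Sparc to 7.29 in MB/HB, 7.48 in CBX and 3.40 against neurons, Mfge8 to -6.665 and Gpc6 to -3.60 in MB/HB, both to 4.55 in CBX against MB/HB, and Mfge8 to 10.08 and Sparcl1 to 8.31 against oligodendrocytes. The averaging also raised the number of all genes passing from 333 to 667 for CBX against VISp, from 263 to 704 for CBX against MB/HB and from 1273 to 2035 against neurons, where the median over all genes moved to -0.54. Without either CBX mouse, 172 to 181 and 150 to 169 genes passed in the CBX comparisons, without cells with a vascular marker 162 and 135, and on plates of more than 1 tissue 178 and 172, where the median over all genes was -0.38 for MB/HB against VISp and 0.33 for CBX against MB/HB. With no filter on low values, 16 of 3801 genes passed between vectors.

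Signs turned only for differences that did not pass. With the mean of log2 values these were Megf10 in CBX (0.39 against VISp, 0.58 against MB/HB), Gpc5 in MB/HB (-0.19) and Thbs4 against neurons (-0.054, and -0.22 with a pseudocount of 0.1 CPM). With reads summed over cells it was Mertk in CBX against MB/HB (-0.084). Megf10 in MB/HB was 0.02 with the class called in each cell and 0.039 without cells with RNA of another class. Without cells with a vascular marker, an alternative chosen after seeing the data, they were Gpc4 in MB/HB (-1.16) and, in CBX against MB/HB, Megf10 (0.025) and Mertk (-0.16). Leaving out 1 mouse at a time gave Megf10 in MB/HB -0.20 to 0.20, Gpc6 in CBX against VISp -0.037 to 0.45, and, in CBX against MB/HB, Gpc4 -0.088 to 0.49 and Mertk -0.17 to 0.26. Gpc6 in CBX against MB/HB kept its sign in these (1.795 to 2.48) and lost its call without CBX mouse B. On plates of more than 1 tissue with plate set as a covariate, also chosen after seeing the data, signs turned for Gpc4 (-0.75) and Megf10 (0.078) in MB/HB and Mertk in CBX against MB/HB (-0.038). The cause of these turns was not tested.

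Of 2311 values of members under alternatives, 2280 kept direction and side of the threshold, and of 3764 values of related genes, 3673 did, with the other 91 losing the call. Requiring 5 cells in place of 10 left the profiles used in the tests unchanged, so that alternative could not change a result. No paired analysis was possible because mice are not shared between tissues. With the mouse as a random block in the class comparison (correlation 0.03), no call of a member or named related gene changed. The number of all genes passing against neurons went from 1273 to 1277. CBX rests on 2 mice of 1 vector and the neurons on 3 mice, so small differences there were not detectable.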

Other observations

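In the 12 neuron-like cells of 1 MB/HB mouse, the single profile of that class outside the cortex, Sparcl1 was at 736 CPM with a read in 12 of 12 cells, Sparc at 56.5 and Gpc5 at 21.8 CPM with reads in 3 cells each, Mertk at 28.4 CPM with reads in 4 cells and Gpc6 at 13.1 CPM in 5, and Chrdl1, Gpc4, Thbs4, Mfge8 and Megf10 had 0 reads. No test was made on 1 mouse.

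Among cells of VISp astrocytes, Sparc ran from 0 CPM at the 10th percentile and 19.3 at the median to 601 at the 90th, whereas in CBX the same percentiles were 1804, 3337 and 5386 CPM and in MB/HB 1419, 2949 and 5238. The 90th percentile of VISp cells thus lay below the 10th of both other tissues. Mfge8 had its overlap the other way: the 90th percentile in MB/HB, 1661 CPM, lay below the 10th percentile in VISp, 2430 CPM.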
